A study of Homo sapiens with 21 samples.

Results

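RNA sequencing of gSOX10 #4, a SOX10 knockout clone labeled as the human melanoma line A375, was compared with that of the parental A375 line. The 3 gSOX10 #4 libraries and the 3 parental libraries, 6 of the 21 libraries of the series, were selected by the condition given in their labels, and genes with a normalized value of 10 or more in at least 3 of the 21 libraries were tested. The other 15 libraries came from a second SOX10 knockout clone, gSOX10 #2, and from CRT34 and CRT35, lines made tolerant to combined BRAF and MEK inhibition and sequenced with the inhibitors or with solvent. The 3 libraries of gSOX10 #2 were used to ask which changes differed between the knockout clones.

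SOX10 is a transcription factor that specifies the neural crest and, with MITF, directs melanocytes, while in Schwann cells it drives the genes of myelination. In melanoma it is kept by most cells of the proliferative, differentiated states, and cells without it resemble undifferentiated, mesenchymal-like states that tolerate targeted drugs. A375 carries the BRAF V600E mutation and is itself poorly pigmented.

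Per the study's methods, A375 cells were transfected with a Cas9 plasmid that carries puromycin resistance, with the guide against SOX10 for which the clone is named, and single clones were expanded after selection. The labels give both groups the same serum-supplemented medium without inhibitor and name A375 as the cell line of both. gSOX10 #4 is 1 clone and no control clone was sequenced with it, so loss of SOX10, cloning and selection cannot be told apart. The titles of the gSOX10 #4 libraries carry a clone number that the study's text uses for a clone of MeWo, another melanoma line. It is thus unsure whether these libraries come from A375, and the series has no MeWo library to compare with. Across the genes tested, gSOX10 #4 libraries correlated with parental at r = 0.926 to 0.935 and with gSOX10 #2 at 0.951 to 0.962. The gSOX10 #2 libraries correlated with parental at 0.924 to 0.936. A value of 50 or more in every gSOX10 #4 library and of 0 in every library of the other groups was found for 0 genes, and the reverse for 4 genes, where the other lines had 0 to 1 genes of either kind. The study calls the replicates independent but the labels do not say so. The p-values rest on the spread within the groups of all 21 libraries of the series, not of the compared libraries alone, and that spread may be technical. Since the RNA came from bulk cultures, fewer cells of a type and less RNA per cell cannot be told apart.

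The 6 libraries held about 52.5 M to 75.6 M reads by the step between low values, and their values added up to 59.2 M to 68.3 M. Across the genes tested, which are not independent replicates, gSOX10 #4 replicate 1 correlated with replicates 2 and 3 at r = 0.976 and 0.971, replicates 2 and 3 with each other at 0.985, and the parental libraries with each other at 0.985 to 0.988. gSOX10 #4 replicate 1 thus stood somewhat apart, and results that change without it are given with that value. Of 21 melanocyte pigment genes, TYR, MLANA and SLC24A5 were listed at 0 in all 6 libraries, so these defining melanocyte markers were absent from both groups. Others were present, with a mean of 10 or more for 12 of the 21 in parental and 11 in gSOX10 #4. Of 13 tested, 2 were called higher (15.4% against 11.8% of all genes) and 3 lower (23.1% against 8.91%). The lower count was 1 without parental replicate 1 and without gSOX10 #4 replicate 3. MITF, the melanocyte master regulator, had 1502, 1448 and 1389.96 in the parental libraries and 862, 2148 and 1337 in gSOX10 #4. It was not called (log2 change -0.1, SE 0.31, adjusted p = 0.84). Levels below are normalized values, given per library or as mean ± SD with n = 3, and changes are log2 fold changes of value + 1 from limma with their standard error (SE) and Benjamini-Hochberg adjusted p. Genes past a 2-fold change whose adjusted p did not exceed 0.05 were called higher or lower.

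SOX10 itself was lower in gSOX10 #4. The gene (chr22:37970686-37987422, minus strand, GRCh38) had 10348, 11877 and 12822 in the parental libraries and 456, 488 and 517 in gSOX10 #4. All knockout libraries lay far below all parental libraries and close to each other (log2 change -4.58, SE 0.47, adjusted p = 4.67e-07). The level left was 4.17% of the parental mean, and SOX10 moved from above 94.3% of the genes tested to above 47.1% of them. Within 1 Mb of its start, 45 other protein-coding genes were measured, of which 7 were called higher and 0 lower by limma, with 0 lower at an unadjusted p under 0.05 (median log2 change 0.25). The share called higher, 15.6%, was near the 11.8% of all genes tested. POLR2F, which codes for an RNA polymerase subunit and overlaps SOX10, had 9974, 9259.9 and 9109 in the parental libraries and 10267, 7318 and 7264 in gSOX10 #4 and was not called (log2 change -0.21, adjusted p = 0.36).

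Of 19290 genes tested, 3996 were called in gSOX10 #4 against parental (20.7%), with 2278 higher (11.8%) and 1718 lower (8.91%). For 2215 of the higher and 1673 of the lower genes, the libraries did not overlap between groups, where 25.5% of all genes tested had every gSOX10 #4 library above and 24.6% below every parental library. Many changes were large, with 1065 higher and 753 lower genes past a 4-fold change and 219 and 224 past a 16-fold change. Some genes appeared or disappeared, with 104 called higher from a listing at 0 in all parental libraries and 124 called lower to a listing at 0 in all gSOX10 #4 libraries. Long noncoding RNAs (lncRNAs) leaned upward, with 475 of 2792 called higher (17%) and 181 lower (6.48%) and a median log2 change of 0.26. Protein-coding genes had 1649 of 15113 higher (10.9%) and 1410 lower (9.33%). Whether reads were counted by strand is not known here, so an lncRNA that overlaps a gene on the other strand may hold that gene's reads.

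**Figure D1:**
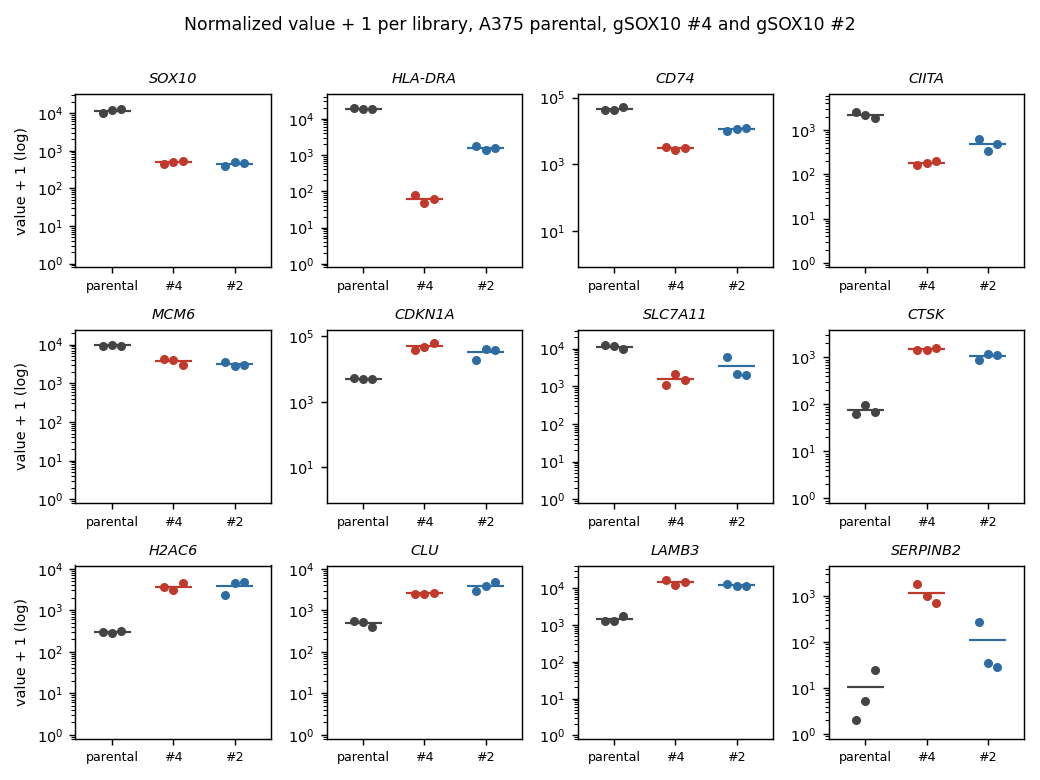
For 12 genes, value + 1 (log axis) in the 3 libraries of parental A375, gSOX10 #4 and gSOX10 #2, each point 1 library and each bar the mean of a group. SOX10, HLA-DRA, CD74, CIITA, MCM6 and SLC7A11 lay lower in every gSOX10 #4 library than in every parental library, and CDKN1A, CTSK, H2AC6, CLU, LAMB3 and SERPINB2 lay higher.

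The largest rises among well expressed protein-coding genes, those with a mean of at least 1000 in the higher group, were in genes of several kinds. They were FPR1, ADAMTS5, TMEM233, SERPINB2, CAMK1D, SPANXB1, COX7B2, BASP1, TRPC4 and CDH11, with log2 changes from 5.67 to 9.69. SERPINB2, the plasminogen activator inhibitor PAI-2, had 1.05, 4.20 and 24.1 in the parental libraries and 1872, 996 and 706 in gSOX10 #4. CAMK1D, a calcium/calmodulin-dependent kinase, had 11.7, 5.70 and 10.4 in the parental libraries and 959, 1116 and 971 in gSOX10 #4. COX7B2, a testis-expressed relative of a cytochrome c oxidase subunit, had 13.8, 33.6 and 13.4 in the parental libraries and 1654, 1374 and 1489 in gSOX10 #4. Neither of the latter exceeded 35 in any parental library, and the groups were far apart for all 3 (log2 changes of 7.41, 6.68 and 6.27, adjusted p from 4.8e-10 to 5.8e-06). BASP1, a membrane-bound protein of growing axons, had 38.4, 48.4 and 41.6 in the parental libraries and 3586, 3062 and 2663 in gSOX10 #4. Its parental libraries agreed closely and its gSOX10 #4 libraries were all above 2600 (log2 change 6.14, SE 0.17, adjusted p = 1.1e-14). FPR1, a formyl peptide receptor of phagocytes, had 887, 749.7 and 2940.4 in gSOX10 #4, with replicate 3 far above the other two, and was listed at 0 in parental replicates 1 and 3.

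The largest falls among well expressed genes were in SOX11, HLA-DRB1, MGAM2, MUC5B, FLT1, CHRDL1, SERPINA3, CDH19, HLA-DRA and OPRD1. The first 5 of these were listed at 0 in all 3 gSOX10 #4 libraries. FLT1, which codes for the vascular endothelial growth factor receptor VEGFR1 (chr13:28300346-28495145), had 1219, 1042 and 907 in the parental libraries. It was expressed in every other group, with 203, 121 and 171 in gSOX10 #2. CHRDL1, a secreted antagonist of bone morphogenetic proteins (BMPs), had 1094, 1469.5 and 1351 in the parental libraries and 2.25, 1.83 and 5.21 in gSOX10 #4. SERPINA3, an acute-phase inhibitor of serine proteases, had 3508, 8160.3 and 12965 in the parental libraries and 49.4, 12.1 and 16.4 in gSOX10 #4. Its parental libraries differed among themselves by more than 3-fold and still lay far above all gSOX10 #4 libraries (log2 change -8.31, SE 1.02, adjusted p = 4.28e-06). A listing at 0 in gSOX10 #4 with 50 or more in every library of the other groups was found for 4 genes, FLT1, ACP3, CENPV and PABPC5. ACP3, prostatic acid phosphatase, CENPV, a centromere protein, and PABPC5, a poly(A)-binding protein, had parental means of 91.9 ± 29.2, 294 ± 29.9 and 59.5 ± 5.10.

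The changes that moved the most value were of another kind. The normalized value is not corrected for gene length, so this ordering favours long and abundant transcripts. Gains were largest for FN1, TGFBI, MT-CO2, HMGA2, CDKN1A, PHLDA1, SQSTM1 and ANPEP. TGFBI, a matrix protein induced by TGF-beta, went from 17057 ± 1584 to 139637 ± 53896, and HMGA2, an architectural chromatin protein, from 20208 ± 1999.7 to 74526 ± 7669.6 (adjusted p = 2.06e-06 and 0.0002). ANPEP, the surface peptidase CD13, went from 12008 ± 854 to 42533 ± 6413, and MT-CO2, a mitochondrially encoded subunit of cytochrome c oxidase, from 43489 ± 6579 to 108169 ± 21145. In each of these 4 genes every gSOX10 #4 library was above every parental library. Losses were largest for HSP90AA1, NPM1, HNRNPA2B1, SERPINE2, NQO1, CD74, HMGB1 and SLC7A5. HSP90AA1, an inducible chaperone, went from 414631 ± 41394 to 183881 ± 31224 (log2 change -1.18, SE 0.21, adjusted p = 0.000245). NQO1, a quinone reductase, went from 66964 ± 6315 to 13636 ± 3005 (log2 change -2.31, SE 0.2, adjusted p = 6.62e-08), and HMGB1, a chromatin protein, from 68735 ± 4882 to 27468 ± 1519.6 (log2 change -1.32, SE 0.21, adjusted p = 6.21e-05). After quantile normalization HSP90AA1, NPM1 and HNRNPA2B1 had changes of -0.82, -0.96 and -0.89, short of 2-fold. SQSTM1 lost its call without parental replicate 3 (log2 change 0.94, adjusted p = 0.0031), without gSOX10 #4 replicate 1 (log2 change 0.93, adjusted p = 0.00228) and without gSOX10 #4 replicate 2 (log2 change 0.97, adjusted p = 0.00245). HNRNPA2B1 lost its call without gSOX10 #4 replicate 3 (log2 change -1.0, adjusted p = 0.00068). SERPINE2 lost its call without any 1 of the 6 libraries (log2 change -1.53 to -1.31, adjusted p from 0.0546 to 0.098).

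Genes of class II antigen presentation fell together. Class II molecules of the major histocompatibility complex present peptides from endocytosed proteins to CD4+ T cells. They are made of an alpha and a beta chain, are chaperoned by the invariant chain CD74, are loaded with the help of HLA-DM, and depend on the transactivator CIITA. Of 14 measured members, 12 were called lower and 0 higher by limma, with 0 higher at an unadjusted p under 0.05 too (85.7% lower against 8.91% of all genes), with a median log2 change of -4.39. CIITA had 2597, 2138 and 1898 in the parental libraries and 164, 176 and 203 in gSOX10 #4. HLA-DRA, the DR alpha chain (chr6:32439878-32445046), had 19192, 18513 and 18196 in the parental libraries and 76.9, 46 and 62 in gSOX10 #4. CD74 had 43281, 43381 and 50923 in the parental libraries and 3375, 2584 and 3072 in gSOX10 #4. In all 3 genes the lowest parental library exceeded the highest gSOX10 #4 library by more than 9-fold (CIITA -3.6 with SE 0.44 and adjusted p = 4.86e-06, HLA-DRA -8.25 with SE 0.29 and adjusted p = 4.06e-13, CD74 -3.93 with SE 0.27 and adjusted p = 3.57e-09, all on the log2 scale). HLA-DRB1 had 1792, 1751 and 1827 in the parental libraries, and HLA-DQA1 had 137, 111 and 82.8. Both were listed at 0 in all 3 gSOX10 #4 libraries. HLA-DPA1, the DP alpha chain, went from 10331 ± 322 to 1689 ± 83.5, and HLA-DRB5 from 476 ± 27.7 to 0.335 ± 0.581. Genes of the DR and DQ chains have near-identical copies and many alleles, so the split of their reads is uncertain. HLA-DMA and HLA-DMB, the subunits of the loading chaperone, had log2 changes of -2.55 and -4.84. The members that were not called were HLA-DPB1, with 1502, 1816 and 1845 in the parental libraries and 1529.6, 1006 and 1155 in gSOX10 #4 and an overlap of the groups, and CTSS, a cathepsin that cleaves the invariant chain (log2 change -0.53, adjusted p = 0.622).

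gSOX10 #2 had 11 of the 14 class II genes called lower than parental, where 7.78% of all genes were. HLA-DRA had 1819, 1355 and 1597 in gSOX10 #2, CD74 10069.9, 11139.7 and 11878 and CIITA 632, 344 and 472. By the direct test of the clones, 10 of the 14 class II genes were lower in gSOX10 #4 than in gSOX10 #2, where 7.06% of all genes tested were, with a difference of -4.69 for HLA-DRA (SE 0.29, adjusted p = 2.6e-09) and -1.37 for CIITA (SE 0.44, adjusted p = 0.0338). HLA-DMA, at 969.9, 1436 and 1556 in gSOX10 #2, was not called in that clone against parental (log2 change -0.67, adjusted p = 0.0402). Class I antigen presentation, which shows peptides of the cell's own proteins to CD8+ T cells, had 0 higher and 0 lower of 18 members in gSOX10 #4 against parental by limma, and 6 members were higher and 1 lower at an unadjusted p under 0.05. B2M, the light chain, had 50270.3, 45802 and 44817 in the parental libraries and 60839, 62072 and 72171 in gSOX10 #4, with a log2 change of 0.47 (adjusted p = 0.00812). It was short of a 2-fold change, although all 3 gSOX10 #4 libraries lay above all parental libraries.

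Class II promoters share short elements known as the X and Y boxes, where RFX and NF-Y factors bind and recruit CIITA. The core of the Y box, GATTGG or its reverse complement, was present within the 300 bases around the start site (250 before to 50 after, RefSeq, GRCh38.p14) of 8 of the 11 class II genes with a promoter sequence, and of 19.5% of the 11983 promoters of all genes tested. The 160 bases before the start site of 3 of the class II genes that fell are printed to show the element in its setting, 5′ to 3′ on the strand of the gene, with the Y box core in capitals. They lie at chr6:32953098-32953257, chr6:32589849-32590008 and chr6:33009592-33009751, all on the minus strand. A match is a match of letters only.
HLA-DMA: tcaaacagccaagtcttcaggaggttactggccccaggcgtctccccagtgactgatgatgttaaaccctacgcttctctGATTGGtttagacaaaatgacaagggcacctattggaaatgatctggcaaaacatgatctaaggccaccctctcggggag
HLA-DRB1: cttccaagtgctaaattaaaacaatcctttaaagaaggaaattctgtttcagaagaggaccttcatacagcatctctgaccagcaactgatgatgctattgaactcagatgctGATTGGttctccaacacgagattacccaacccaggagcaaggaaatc
HLA-DOA: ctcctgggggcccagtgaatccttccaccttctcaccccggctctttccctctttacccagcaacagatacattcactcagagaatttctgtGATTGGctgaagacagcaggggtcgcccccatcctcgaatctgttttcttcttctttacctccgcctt

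Genes of DNA replication fell as a group. The list holds the origin recognition and licensing factors, the MCM helicase, the polymerases and clamp loaders, and the enzymes of nucleotide supply, most of which are made at the entry to S phase under control of E2F factors. Of 39 members, 24 were called lower and 0 higher by limma, with 0 higher at an unadjusted p under 0.05 too (61.5% lower against 8.91% of all genes), with a median log2 change of -1.12. All 39 changes were below 0. TYMS, thymidylate synthase, had 15798, 13896 and 14160.3 in the parental libraries and 6233, 5209 and 4607 in gSOX10 #4. MCM6, a subunit of the replicative helicase, had 9434, 9644 and 9398 in the parental libraries and 4123, 3976 and 2944 in gSOX10 #4. TK1, thymidine kinase, had 8186, 7126 and 8537 in the parental libraries and 3839, 2113 and 2045 in gSOX10 #4. In these genes, as in MCM3, a further subunit of the helicase, every gSOX10 #4 library lay below every parental library (TYMS -1.46 with SE 0.22 and adjusted p = 4.2e-05, MCM6 -1.38 with SE 0.21 and adjusted p = 4.73e-05, TK1 -1.64 with SE 0.25 and adjusted p = 5.75e-05, on the log2 scale). CDC6, which loads the helicase at origins, had the largest change of the list (log2 change -1.7, SE 0.34, adjusted p = 0.000681). Among members that were not called, PCNA, the sliding clamp, went from 23215 ± 1538 to 14629 ± 478 (log2 change -0.66).

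Some regulators of the cycle were also lower. Of 32 cyclins, cyclin-dependent kinases (CDKs), their inhibitors and E2F factors, 10 were called lower (31.25% against 8.91% of all genes) and 1 higher (3.1% against 11.8%). The higher gene was CDKN1A, the inhibitor p21, with 5269.8, 4922 and 5015 in the parental libraries and 38835, 47360.3 and 64233 in gSOX10 #4 (log2 change 3.28, SE 0.42, adjusted p = 8.54e-06). The 4 lower members with the lowest p were CDKN1C, the inhibitor p57 (117 ± 40.7 to 5.24 ± 3.43), E2F2 (976 ± 92 to 237 ± 75.9), CDK6 (23889 ± 1954 to 10684 ± 3583) and WEE1, a kinase that holds back mitotic entry (2327 ± 237 to 1083 ± 112). CDKN1C, an inhibitor, thus fell while its relative CDKN1A rose. CDK6 lost its call without gSOX10 #4 replicate 1 (log2 change -0.9, adjusted p = 0.0013). Mitosis genes had 9 of 41 called lower and 0 higher by limma, the latter also 0 at an unadjusted p under 0.05 (22.0% lower), with a median log2 change of -0.82. MYBL2, a factor of the late cell cycle, went from 9748 ± 1148 to 2723 ± 1533, KIF18B, a kinesin, from 5363 ± 746 to 1816 ± 459.9, TOP2A, topoisomerase II alpha, from 51148 ± 4834 to 19217 ± 2575, and TPX2, a spindle assembly factor, from 20507 ± 2018 to 8900.1 ± 2317. This count depended on single libraries, with 17 lower without gSOX10 #4 replicate 1 and 5 lower without parental replicate 1. The count for DNA replication ran from 20 to 29 when 1 library was left out.

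The E2F motif, TTCCCGCC or TTTGGCGC on either strand, was present in the promoters of 17 of the 35 DNA replication genes with a sequence, of 8.43% of the promoters of genes called lower, of 3.29% of those called higher and of 5.81% of all 11983. The AP-1 motif, TGANTCA, had the opposite distribution, at 9.07% of promoters of genes called higher, 5.06% of those called lower and 5% of all. Such a motif was present in the promoters of 3 of the 7 genes of largest rise that had a sequence, FPR1, SERPINB2 and COX7B2. The SOX motif, ACAAAG or ACAATG, was in 20.6% of promoters of genes called higher, 20.6% of those called lower and 16.8% of all. The promoters of 3 replication genes that fell are printed with the E2F motif in capitals, over the 160 bases before the start site at chr2:135876444-135876603 (minus strand), chrX:24693758-24693917 (plus strand) and chr16:85688955-85689114 (minus strand).
MCM6: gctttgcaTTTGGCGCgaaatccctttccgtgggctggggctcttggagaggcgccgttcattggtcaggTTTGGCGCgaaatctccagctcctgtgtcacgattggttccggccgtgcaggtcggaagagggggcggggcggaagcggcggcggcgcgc
POLA1: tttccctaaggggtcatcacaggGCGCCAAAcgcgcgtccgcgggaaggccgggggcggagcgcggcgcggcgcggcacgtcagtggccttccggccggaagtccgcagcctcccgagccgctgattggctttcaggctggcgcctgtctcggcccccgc
GINS2: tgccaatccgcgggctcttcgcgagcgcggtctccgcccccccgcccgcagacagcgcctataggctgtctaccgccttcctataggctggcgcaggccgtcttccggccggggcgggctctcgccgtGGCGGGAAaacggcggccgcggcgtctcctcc

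Many genes of amino acid uptake and synthesis fell. Many of these are targets of ATF4, the transcription factor of the amino acid response. Of 28 members, 14 were called lower (50% against 8.91% of all genes) and 0 higher by limma (2 at an unadjusted p under 0.05), with a median log2 change of -0.94. GPT2, mitochondrial alanine transaminase, had 4421, 5439 and 4998 in the parental libraries and 1343, 1096 and 948 in gSOX10 #4. SLC7A11, the cystine transporter, had 12556, 11678 and 9518 in the parental libraries and 1045, 2073 and 1481 in gSOX10 #4. SHMT1, which passes serine carbon to folate, went from 4022 ± 238 to 1629 ± 389.9, and SLC1A4, a transporter of neutral amino acids, from 1608 ± 206 to 299.7 ± 91.5. In all 4 the groups did not overlap (log2 changes of -2.14, -2.92, -1.33 and -2.46, adjusted p from 1.15e-06 to 2.03e-05). SLC3A2 and SLC7A5, both chains of a large neutral amino acid transporter, had log2 changes of -1.86 and -1.93. PHGDH and PSAT1, the first steps of serine synthesis, had -1.22 and -1.45. ATF4 itself was not called (log2 change -0.3, adjusted p = 0.207), nor were DDIT3 and TRIB3 (0.02 and 0.04), which ATF4 induces under stress. Synthesis of cholesterol and fatty acids had 2 of 27 members lower (7.41%, near the 8.91% of all genes), SCD and SREBF1 (-1.04 and -1.02), and 0 higher by limma, with 2 at an unadjusted p under 0.05. SCD lost its call without parental replicate 2 (log2 change -0.89, adjusted p = 0.0108), without parental replicate 3 (log2 change -0.99, adjusted p = 0.00714) and without gSOX10 #4 replicate 3 (log2 change -0.95, adjusted p = 0.00768). SREBF1 lost its call without parental replicate 2 (log2 change -0.86, adjusted p = 0.0153), without parental replicate 3 (log2 change -0.92, adjusted p = 0.0128) and without gSOX10 #4 replicate 3 (log2 change -0.82, adjusted p = 0.0147). Glycolysis and hypoxia genes had 6 of 34 higher (17.6% against 11.8% of all genes), with CA12 and CA9, carbonic anhydrases, at 3.26 and 3.74. The 2 lower (5.88% against 8.91%) were HK2, a hexokinase (-1.2), and EGLN3 (-1.67). The count of amino acid genes was 12 lower and 1 higher without parental replicate 3.

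**Figure D2:**
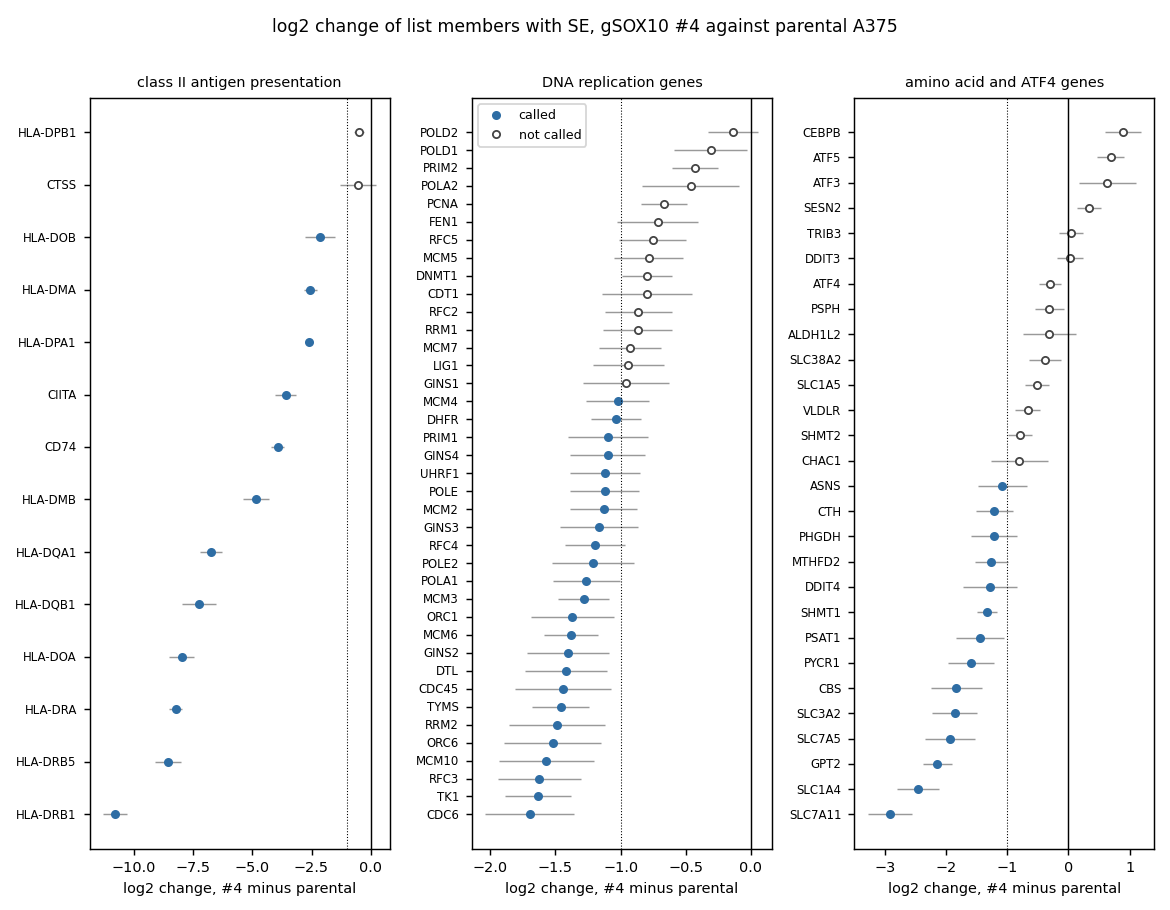
log2 change of gSOX10 #4 against parental A375 for the 14 class II genes, 39 DNA replication genes and 28 amino acid and ATF4 genes, with bars of 1 SE, filled where called and open where not, and a dotted line at -1. HLA-DRB1 and HLA-DQA1 were listed at 0 in gSOX10 #4, so their points depend on the pseudocount. All 39 replication genes lie left of 0, and 24 are filled.

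A share of the histone genes rose, unlike the replication genes. Replication-dependent histone messages lack a poly(A) tail, and libraries selected on poly(A) catch the tailed forms. Of 47 measured histone genes, 19 were called higher (40.4% against 11.8% of all genes) and 1 lower, with 21 higher and 9 lower at an unadjusted p under 0.05 and a median log2 change of 0.55. H2AC6 had 305, 275 and 308 in the parental libraries and 3538, 2999 and 4649.7 in gSOX10 #4. H2BC21 had 112, 76.6 and 124 in the parental libraries and 1313, 1197 and 1881 in gSOX10 #4, and H4C15 had 64.2, 45.7 and 55.7 in the parental libraries and 515, 603 and 1161 in gSOX10 #4. The groups did not overlap, and the values differed among gSOX10 #4 libraries by less than 2.3-fold (log2 changes of 3.63, 3.8 and 3.68, adjusted p = 7.32e-07, 5.15e-06 and 1.06e-06). H3C6 had a log2 change of 3.21. The 1 lower gene was H2BC14 (log2 change -2.51, SE 0.86, adjusted p = 0.0279). H2BC14 lost its call without parental replicate 1 (log2 change -2.33, adjusted p = 0.0847), without parental replicate 3 (log2 change -2.48, adjusted p = 0.066), without gSOX10 #4 replicate 2 (log2 change -2.51, adjusted p = 0.0581) and without gSOX10 #4 replicate 3 (log2 change -1.32, adjusted p = 0.189). Without gSOX10 #4 replicate 1, 17 histone genes were higher and 6 lower. Histone genes of a type are near-identical, and the assignment of reads among them is uncertain. Between the clones 0 histone genes were called different in either direction by limma, with 0 higher and 4 lower in gSOX10 #4 at an unadjusted p under 0.05.

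Targets of p53 and genes of lysosomes and autophagy had higher members and none called lower by limma, with 0 and 2 lower members at an unadjusted p under 0.05. Of 30 p53 targets, 10 were higher (33.3% against 11.8% of all genes), led by CDKN1A, GDF15, a stress-induced secreted factor (203 ± 46.7 to 2620.4 ± 764), FAS, a death receptor (1441 ± 120.4 to 3378 ± 1146), and BTG2, an antiproliferative factor (907 ± 32 to 2297 ± 380.2). FAS lost its call without gSOX10 #4 replicate 3 (log2 change 0.96, adjusted p = 0.000948). The count was 6 when only the 6 compared libraries were fitted with a block for the replicate number. Of 34 lysosome and autophagy genes, 9 were higher (26.5% against 11.8%) with a median log2 change of 0.61. CTSK, a collagen-degrading cathepsin, had 60.1, 95.5 and 67.3 in the parental libraries and 1435, 1446 and 1546 in gSOX10 #4. TFEB, the factor that switches on lysosomal genes, had 14.4, 38.2 and 49.3 in the parental libraries and 305, 183 and 307 in gSOX10 #4. Neither gene overlapped between the groups (log2 change 4.32, SE 0.21, adjusted p = 2.13e-11 for CTSK and log2 change 3.05, SE 0.41, adjusted p = 1.22e-05 for TFEB). CTSB and CTSF, other cathepsins, had log2 changes of 1.35 and 1.73. Of 16 BCL2 family genes 4 were higher (25% against 11.8%), BCL2A1 and BMF (3.73 and 2.52), BBC3 (1.59) and BAD (1.0). The 2 lower (12.5% against 8.91%) were HRK and BCL2 (-5.48 and -1.83). BAD lost its call without parental replicate 1 (log2 change 0.94, adjusted p = 0.0871), without parental replicate 2 (log2 change 0.96, adjusted p = 0.0764) and without gSOX10 #4 replicate 1 (log2 change 0.67, adjusted p = 0.155). Of the inhibitors of apoptosis and their partners, 0 and 0 of 23 were called higher and lower by limma, with 6 and 4 at an unadjusted p under 0.05.

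Complement and interferon-stimulated genes rose in part. Of 19 complement genes, 9 were called higher (47.4% against 11.8%) and 2 lower, with a median log2 change of 1.49. CFB, the protease of the alternative pathway, had 21.2, 14.9 and 8.78 in the parental libraries and 377, 399 and 266 in gSOX10 #4. CLU, clusterin, went from 494 ± 85.6 to 2584 ± 98.4, CFI, which cleaves C3b, from 555 ± 41.3 to 2332 ± 185, and C2 from 9.92 ± 9.42 to 108 ± 13, while C7, of the terminal pathway, was lower at 16 ± 7.88 to 0.273 ± 0.473 and SERPING1, the inhibitor of C1, went to a listing at 0 from 5.45 ± 2.03. SERPING1 lost its call with a pseudocount of 10 (log2 change -0.62, adjusted p = 0.12). CFB was not among the 4 members of lowest p and was chosen after its values were seen. Of 40 interferon-stimulated genes, 15 were higher (37.5% against 11.8%) and 2 lower (5% against 8.91%). OASL, BST2, IFI44L and OAS2 had log2 changes of 3.89, 2.49, 2.97 and 1.65, and CMPK2 and GBP2 had -1.97 and -2.61. Of 28 chemokines and their receptors 4 were higher, CCL26, CCR1, ACKR3 and ACKR2 (3.35, 1.85, 2.11 and 2.25), and 2 lower, CX3CL1 (-5.03) and CCL2 (-3.75), shares (14.3% and 7.14%) near those of all genes (11.8% and 8.91%). ACKR3 lost its call without parental replicate 2 (log2 change 1.99, adjusted p = 0.0867), without parental replicate 3 (log2 change 1.62, adjusted p = 0.142), without gSOX10 #4 replicate 2 (log2 change 1.81, adjusted p = 0.11) and without gSOX10 #4 replicate 3 (log2 change 2.02, adjusted p = 0.0783). ACKR2 lost its call without any 1 of the 6 libraries (log2 change 2.0 to 2.47, adjusted p from 0.0571 to 0.122). CCR1 lost its call with a pseudocount of 10 (log2 change 0.75, adjusted p = 0.142) and after quantile normalization (log2 change 1.37, adjusted p = 0.0544). The counts were 3 higher and 6 lower without parental replicate 1. Of 27 interleukins and receptors 7 were higher (25.9% against 11.8%) and 5 lower (18.5% against 8.91%). The higher included IL4R (1.58), IL15 (1.75), IL33 (listed at 0 in the parental libraries) and IL12A (1.39). The lower were IL6R (-1.16), IL16 (-3.98), IL18R1 (-1.87), IL1A (-2.74) and IL9R (-1.48). IL33 lost its call with a pseudocount of 10 (log2 change 1.22, adjusted p = 0.069). IL9R lost its call without parental replicate 2 (log2 change -1.39, adjusted p = 0.0553) and without gSOX10 #4 replicate 3 (log2 change -1.3, adjusted p = 0.0621). Leukocyte markers also changed in both directions, with only 7 of the 16 tested. Of these 7 markers 4 were higher (57.1% against 11.8%) and 1 lower (14.3% against 8.91%). The summed level of the 16 was 1598 to 1709 in parental libraries and 3978 to 5141 in gSOX10 #4, and CD68 made up most of both. NKG7, MS4A1, CD3G and FCGR3A were at 0 in all gSOX10 #4 libraries, PTPRC, the pan-leukocyte marker, had 3.36, 0.819 and 1.15, and LYZ was lower (400.3 ± 79.4 to 14.6 ± 3.42).

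**Figure D3:**
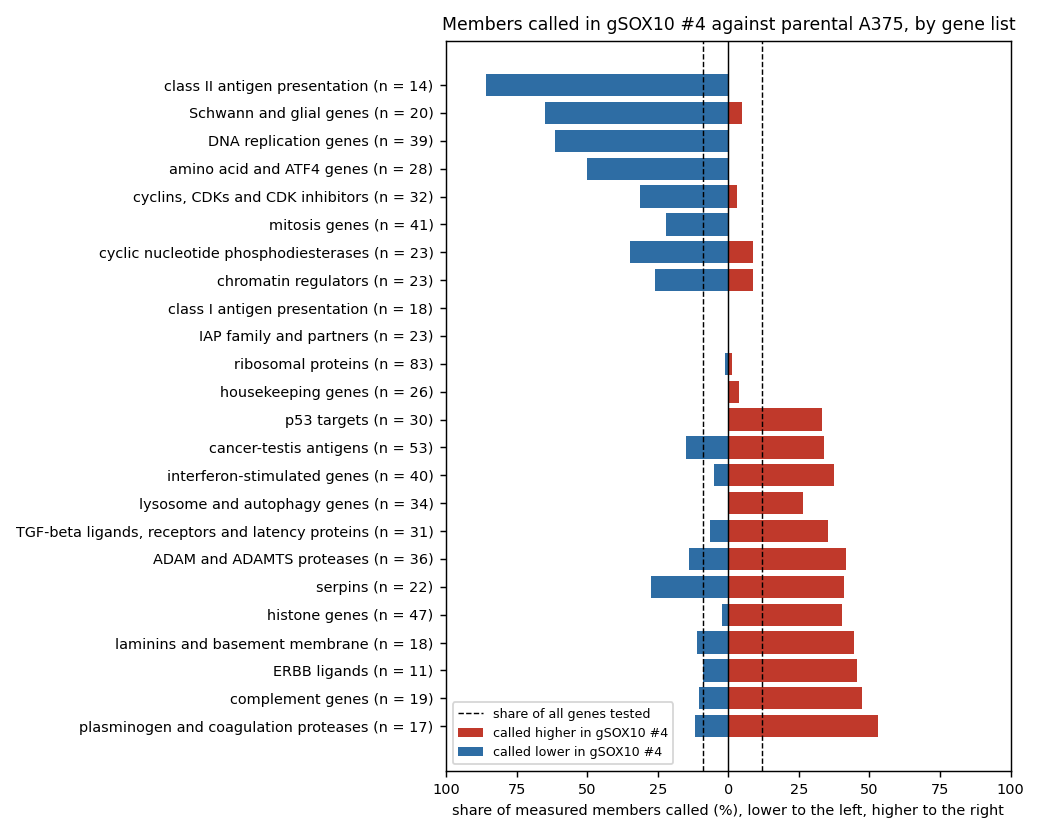
Share of the measured members of 24 gene lists called higher (red, to the right) or lower (blue, to the left) in gSOX10 #4 against parental A375, in percent, with dashed lines at the shares of all 19290 genes, 11.8% higher and 8.91% lower. Class II antigen presentation reaches 85.7% lower and plasminogen and coagulation proteases 52.9% higher, and class I antigen presentation and the IAP family have no bar.

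Matrix genes and the proteases that act on the matrix changed in both directions, with more higher than lower members among laminins and basement membrane genes. Of 18 laminins and basement membrane genes, 8 were called higher (44.4% against 11.8% of all genes) and 2 lower. LAMB3, a chain of laminin 332, had 1268, 1257 and 1744 in the parental libraries and 16812, 12578 and 15107 in gSOX10 #4. NID2, a nidogen that links laminin to collagen IV, had 84, 143 and 112 in the parental libraries and 1466, 1267 and 2226 in gSOX10 #4. LAMA1 and LAMA4, laminin alpha chains, had log2 changes of 2.96 and 1.2, and the lower genes were NID1 (-1.43) and LAMC3 (-2.34). LAMC3 lost its call with a pseudocount of 10 (log2 change -0.81, adjusted p = 0.0772). All gSOX10 #4 libraries were above all parental ones for LAMB3 and NID2 (adjusted p = 1.25e-06 and 7.29e-08). Of 37 collagens 11 were higher (29.7% against 11.8%) and 6 lower (16.2% against 8.91%). COL4A5, of basement membranes, COL5A1, of fibrils, COL13A1 and COL17A1, both transmembrane, had log2 changes of 2.89, 2.89, 2.36 and 4.22, and COL19A1, COL9A3 and COL5A2 had -4.58, -3.56 and -1.26. COL2A1, at 58.6 ± 32.1 in the parental line, was listed at 0. Matricellular proteins and proteoglycans had 8 higher (21.1% against 11.8%) and 9 lower (23.7% against 8.91%) of 38. POSTN, periostin, had a log2 change of 5.05, VCAN, versican, 3.21, GPC4, a glypican, -6.28 and BGN, biglycan, -3.56. VCAN was named after its value was seen. The fibroblast markers include POSTN and collagen genes, which the lists above also hold, so they are not a separate observation. Of 11 fibroblast markers tested, 5 were higher (45.5% against 11.8%) and 1 lower (9.09%, near 8.91%). Their summed level was 1248 to 1438 in parental and 3962 to 4297 in gSOX10 #4 libraries. Without 1 of the gSOX10 #4 libraries, whichever it was, 2 fibroblast markers were lower. DPT was at 0 in both groups, COL1A2 had 16, 10.8 and 0 in gSOX10 #4, and POSTN, at 1684 ± 33.3, made up much of the sum.

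Among proteases, 15 of 36 ADAM and ADAMTS genes were higher (41.7% against 11.8%) and 5 lower. ADAMTS5, an aggrecanase, had 9.26, 2.62 and 2.82 in the parental libraries and 1207, 1546 and 2309.7 in gSOX10 #4, and ADAM28, ADAMTS1 and ADAMTS7 had log2 changes of 6.67, 3.39 and 2.5. ADAMTS4, the other main aggrecanase, went the opposite way, from 372 ± 94.8 to 35 ± 15.8, as did ADAM23 (-3.08), ADAMTS10 (-1.95) and ADAM11 (-1.06), and ADAMTS2 was listed at 0 in gSOX10 #4. ADAMTS2 lost its call with a pseudocount of 10 (log2 change -0.74, adjusted p = 0.0967). ADAMTS10 lost its call without parental replicate 1 (log2 change -1.44, adjusted p = 0.0774) and without gSOX10 #4 replicate 2 (log2 change -1.3, adjusted p = 0.078). ADAM11 lost its call without parental replicate 1 (log2 change -1.15, adjusted p = 0.0524), without parental replicate 2 (log2 change -0.86, adjusted p = 0.132) and without gSOX10 #4 replicate 2 (log2 change -0.58, adjusted p = 0.209). Matrix metalloproteinases (MMPs) and their inhibitors had 6 higher (28.6% against 11.8%) and 5 lower (23.8% against 8.91%) of 21. MMP14, TIMP1, MMP19 and MMP2 had log2 changes of 2.24, 1.58, 1.99 and 1.58, and TIMP3, MMP8, MMP15, MMP17 and MMP12 had -2.63, -7.11, -1.47, -2.59 and -2.77. Of 17 genes of plasminogen activation and coagulation, 9 were higher (52.9% against 11.8%) and 2 lower, with a median log2 change of 1.3. PLAU, the urokinase activator, had 53.2, 71.3 and 36 in the parental libraries and 651, 748 and 1034 in gSOX10 #4. THBD, thrombomodulin, had 6.37, 2.56 and 3.67 in the parental libraries and 244, 249 and 235 in gSOX10 #4. TFPI, an inhibitor of tissue factor, had a log2 change of 2.34, while F3, tissue factor itself, went from 1392 ± 505 to 318 ± 26.2 and SERPINE2, protease nexin 1, from 150312 ± 13268 to 57363 ± 9486. SERPINE2 lost its call without any 1 of the 6 libraries (log2 change -1.53 to -1.31, adjusted p from 0.0546 to 0.098). PLAU, at 277, 382 and 328 in gSOX10 #2, and SERPINB2 were higher in gSOX10 #4 than in gSOX10 #2 by the direct test (adjusted p = 0.0215 for PLAU, and a log2 difference of 4.05 with adjusted p = 0.00413 for SERPINB2).

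Some growth factors rose, while genes of their receptors went both ways. Of 11 ligands of the ERBB receptors, 5 were higher (45.5% against 11.8% of all genes) and 1 lower (9.09%, near the 8.91% of all genes). The higher were AREG, NRG1, BTC, HBEGF and NRG3 (log2 changes of 3.49, 1.92, 3.14, 1.62 and 2.44), and NRG4 was lower (-3.06). AREG, amphiregulin, had 165, 164 and 233 in the parental libraries and 1934, 1658 and 2841 in gSOX10 #4. NRG3 lost its call without parental replicate 2 (log2 change 2.24, adjusted p = 0.0695), without parental replicate 3 (log2 change 2.07, adjusted p = 0.0882) and without gSOX10 #4 replicate 3 (log2 change 2.4, adjusted p = 0.051). NRG4 lost its call when only the compared libraries were fitted (adjusted p = 0.0822). ERBB3, the receptor that neuregulins bind, had 5993, 9355 and 9197 in the parental libraries and 107, 256 and 160.4 in gSOX10 #4, and the groups were more than 20-fold apart. Of 19 platelet-derived, vascular and related growth factors, 8 were higher (42.1% against 11.8%) and 2 lower (10.5%, near 8.91%). PROS1, PDGFC, VEGFA and VEGFC had log2 changes of 1.88, 1.88, 1.64 and 1.82, and PDGFD and PDGFB were lower at -2.53 and -3.53. Of 37 receptor tyrosine kinases, 5 were higher (13.5%, near the 11.8% of all genes) and 9 lower (24.3% against 8.91%). CSF1R, the receptor of macrophage colony-stimulating factor, had 10.9, 7.99 and 17.8 in the parental libraries and 565, 222 and 513 in gSOX10 #4, and its ligand CSF1 went from 893 ± 196 to 2758 ± 323. The others that rose were FGFR1 (1.07), EGFR (1.53), ROS1 (2.78) and PDGFRA (1.94), and FLT1, ERBB3, PTK7 (-1.81) and FGFR3 (-2.85) were the falls of lowest p. FGFR1 lost its call without gSOX10 #4 replicate 2 (log2 change 1.0, adjusted p = 2.75e-05). Eph receptors and ephrins had 3 higher (15.8%, near the 11.8% of all genes) and 5 lower (26.3% against 8.91%) of 19. EPHA3 had 6999.9, 7046 and 6931 in the parental libraries and 43.7, 62.6 and 66.8 in gSOX10 #4, EPHA7 and EPHB3 had log2 changes of -4.88 and -5.81, and EPHB2, EPHA5 and EPHB6 had 1.29, 3.83 and 3.84.

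In the TGF-beta family, 11 of 31 ligands, receptors and latency proteins were higher (35.5% against 11.8%), with LTBP1, which holds the latent ligand in the matrix, at 224, 278 and 172 in the parental libraries and 4371, 5269.98 and 9029.8 in gSOX10 #4. TGFBR2, the type II receptor, TGFBI and ACVRL1, a type I receptor, had log2 changes of 2.7, 2.96 and 3.3. The lower members were FST, follistatin (2509.97 ± 607 to 170.2 ± 46.9), and BAMBI, a decoy receptor (858 ± 63.6 to 376 ± 178). BAMBI lost its call without gSOX10 #4 replicate 3 (log2 change -0.99, adjusted p = 0.0376). BMP ligands, receptors and antagonists had 9 higher (32.1% against 11.8%) and 7 lower (25% against 8.91%) of 28. BMPER (4.99), GDF15 and GDF6 (4.22) were among the higher, and CHRDL1, BMP8B (-2.23), BMP6 (-3.16) and BMP7 (-3.26) among the lower. Of 21 Wnt modulators and targets 5 were higher (23.8% against 11.8% of all genes) and 4 lower (19.05% against 8.91%). RNF43, a ubiquitin ligase that removes Wnt receptors from the surface, had 641, 349.5 and 465 in gSOX10 #4 against 5.43, 0 and 0 in the parental libraries, and LGR6 and LGR4, receptors of R-spondins, had log2 changes of 5.46 and 1.04. LEF1, a nuclear effector of the pathway, went from 1758 ± 196 to 632 ± 95.9. LGR4 lost its call without parental replicate 3 (log2 change 0.95, adjusted p = 0.00123), without gSOX10 #4 replicate 2 (log2 change 0.97, adjusted p = 0.00104) and without gSOX10 #4 replicate 3 (log2 change 0.96, adjusted p = 0.00101). Without parental replicate 3 the count of higher members was 3. Of 32 genes of MAPK output and feedback, 6 were higher (18.75% against 11.8% of all genes) and 5 lower (15.6% against 8.91%). The AP-1 subunits FOSL2, JUN and JUNB had log2 changes of 1.99, 2.09 and 1.6, and SPRED3 had 1.58. The lower genes were SPRY2, EGR3, EPHA4, MYC and SPRY1 (-1.89, -3.71, -1.6, -1.22 and -1.92). JUNB is named after its value was seen. MYC lost its call without parental replicate 2 (log2 change -1.26, adjusted p = 0.0514), without parental replicate 3 (log2 change -1.09, adjusted p = 0.0889), without gSOX10 #4 replicate 1 (log2 change -1.14, adjusted p = 0.0707) and without gSOX10 #4 replicate 2 (log2 change -1.14, adjusted p = 0.0724). SPRY1 lost its call without parental replicate 1 (log2 change -2.01, adjusted p = 0.0595), without parental replicate 2 (log2 change -1.75, adjusted p = 0.0934), without parental replicate 3 (log2 change -1.99, adjusted p = 0.0596), without gSOX10 #4 replicate 1 (log2 change -1.67, adjusted p = 0.1) and without gSOX10 #4 replicate 3 (log2 change -2.02, adjusted p = 0.0515). The count of lower members was 3 without parental replicate 2 and without parental replicate 3.

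SOX10 acts in the neural crest and the Schwann cell lineage during development. Schwann and glial genes fell in large part, while neural crest transcription factors went both ways. Of 20 Schwann and glial genes, 13 were lower (65.0% against 8.91% of all genes) and 1 higher, GAP43, a growth cone protein (173 ± 14.6 to 748 ± 350.2). S100B, a glial calcium-binding protein, had 365, 683 and 446 in the parental libraries and 10.1, 3.13 and 5.27 in gSOX10 #4. PMP22, a myelin protein, had 12033, 11458 and 10378 in the parental libraries and 3951, 3270.2 and 3022 in gSOX10 #4, and NES, the intermediate filament nestin, had 26602, 31948 and 31316 in the parental libraries and 2483, 1209 and 994 in gSOX10 #4. None of these overlapped between the groups (log2 scale -6.19, -1.73 and -4.37, adjusted p = 4.25e-08, 1.47e-07 and 2.69e-07). Of the SOX family, SOX11 was listed at 0 in gSOX10 #4, SOX5, SOX2 and SOX6 were lower (-3.24, -3.44 and -3.43) and SOX9 and SOX30 higher (3.93 and 2.66). SOX30 lost its call with a pseudocount of 10 (log2 change 0.85, adjusted p = 0.055). SOX6 lost its call without gSOX10 #4 replicate 3 (log2 change -2.87, adjusted p = 0.0521). Neural crest transcription factors had 6 higher (27.3% against 11.8%) and 5 lower (22.7% against 8.91%) of 22. The higher included SNAI2 (36.5 ± 4.57 to 429 ± 49.2), NR2F1, TFAP2A and ID3. The lower were TFAP2B, listed at 0, PRRX1 (5995 ± 1150.3 to 738 ± 125), ZIC2, FOXD3 and TFAP2C. TFAP2A lost its call without parental replicate 3 (log2 change 0.98, adjusted p = 0.00334) and without gSOX10 #4 replicate 1 (log2 change 0.97, adjusted p = 0.00238). ID3 lost its call without gSOX10 #4 replicate 1 (log2 change 0.93, adjusted p = 0.0112). Of 30 semaphorins, plexins and neuropilins 10 were higher (33.3% against 11.8%) and 3 lower (10%, near 8.91%). NRP1, PLXNA2, SEMA4B and PLXNB2 had 1.92, 2.91, 1.46 and 1.37, and PLXND1, SEMA3G and SEMA6B had -1.93, -3.1 and -1.08. SEMA6B lost its call without parental replicate 2 (log2 change -0.93, adjusted p = 0.0361). Of 19 netrins, slits and their receptors 7 were higher (36.8% against 11.8%), led by NEO1, NTNG2, UNC5D and NTN4 (2.15, 3.83, 3.05 and 2.27). The 3 lower (15.8% against 8.91%) were NTN1, RGMA and SLIT2 (-3.85, -3.14 and -2.16).

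G protein-coupled receptors changed in both directions. Of 48 G protein-coupled receptors outside the adhesion class, 12 were higher (25% against 11.8% of all genes) and 11 lower (22.9% against 8.91%). EDNRA, the endothelin A receptor, went from 105 ± 5.92 to 2563 ± 162, while EDNRB, the endothelin B receptor of melanocytes, went from 636 ± 96.5 to 87.7 ± 16.6 (log2 changes of 4.6 and -2.85). FPR2 was listed at 0 in the parental libraries and had 227, 357 and 511 in gSOX10 #4, with replicate 3 the highest, as for FPR1. P2RY1, a purine receptor, OPRD1, an opioid receptor, and CHRM3, a muscarinic receptor, had log2 changes of -5.62, -8.13 and -7.15. Of 60 potassium channel genes 9 were higher, with KCNK1 at 1.61, and 7 lower, with KCNS3 at -2.87, shares (15% and 11.7%) near those of all genes (11.8% and 8.91%). Of 37 calcium, sodium and chloride channel genes 8 were higher (21.6% against 11.8%), with CLIC2 at 4.34. The 9 lower (24.3% against 8.91%) included CACNA1E at -5.08 and ANO4, listed at 0 in gSOX10 #4. Cyclic nucleotide phosphodiesterases had 8 lower of 23 (34.8% against 8.91%) and 2 higher. PDE9A went from 219 ± 42.6 to 4.74 ± 2.04, PDE3B from 234 ± 19.1 to 1.22 ± 1.47, PDE4B from 735 ± 71 to 134 ± 10.1 and PDE1C from 8282 ± 1890.1 to 2511 ± 1265. PDE1A and PDE11A were higher (3.36 and 1.47). PDE11A lost its call without parental replicate 2 (log2 change 1.13, adjusted p = 0.0728) and without gSOX10 #4 replicate 2 (log2 change 1.22, adjusted p = 0.0584). Without parental replicate 1, 4 phosphodiesterase genes were higher.

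Cancer-testis antigens, which are silent in most adult tissues outside the testis, had 18 of 53 members higher (34.0% against 11.8%) and 8 lower. SPANXB1 had 176, 209 and 207 in the parental libraries and 19670.4, 18635 and 17823 in gSOX10 #4, and SPANXA1, SPANXC and SPANXA2 had log2 changes of 3.92, 5.29 and 4.2. MAGEA1 went the other way, with 318, 293 and 232 in the parental libraries and 15, 7.39 and 3.57 in gSOX10 #4, and of the GAGE genes GAGE1 was called higher (3.38) and GAGE12J lower (-4.84), while GAGE12H was listed at 0 in gSOX10 #4. Members of the SPANX and GAGE families are near-identical and share reads, so calls of single members are uncertain. A list of chromatin regulators, which also holds the RNA-binding proteins LIN28B and IGF2BP1, had 6 of 23 lower (26.1% against 8.91%) and 2 higher (8.7% against 11.8%). CBX2, SUZ12 and EZH2, of Polycomb complexes, had log2 changes of -2.73, -1.38 and -1.1, and IGF2BP1 and TET1 had -1.0 and -1.61. KDM5B, a demethylase of slow-cycling melanoma cells, and HMGA2 were higher (1.11 and 1.88). EZH2 is named after its value was seen. IGF2BP1 lost its call without parental replicate 3 (log2 change -1.0, adjusted p = 0.000262) and without gSOX10 #4 replicate 1 (log2 change -0.87, adjusted p = 0.000189). KDM5B lost its call without gSOX10 #4 replicate 3 (log2 change 0.96, adjusted p = 0.000441). Ribosomal protein genes had 1 higher, RPS27L (1.05), and 1 lower, RPL10L, of 83, and RPL10L was listed at 0 in gSOX10 #4. RPS27L lost its call without gSOX10 #4 replicate 2 (log2 change 0.92, adjusted p = 0.00693). Housekeeping genes had 1 higher, CHMP2A (1.65), and 0 lower of 26 by limma, with 8 lower at an unadjusted p under 0.05.

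The direct test of gSOX10 #4 against gSOX10 #2 asked which of these changes differed between the clones. Of 19290 genes, 1872 were called (9.7%), 510 higher (2.64%) and 1362 lower (7.06%) in gSOX10 #4. After quantile normalization the split was 719 higher and 1044 lower, which moved the higher share of calls from 27.2% to 40.8%. Among the 3996 genes called in gSOX10 #4 against parental, 937 were also called different between the clones. In 139 of these gSOX10 #4 was above both other groups and in 362 below both, with gSOX10 #2 not called against parental. TMEM233, a membrane protein, had 7.11, 8.15 and 10.5 in the parental libraries and 2395, 2812 and 2951 in gSOX10 #4, against 33, 33.3 and 16.8 in gSOX10 #2 (log2 difference 6.62, SE 0.63, adjusted p = 7.62e-07). CXADR, the coxsackievirus and adenovirus receptor of tight junctions, had 526, 858 and 903 in gSOX10 #4, 119.5, 79.4 and 105 in parental and 92, 97.4 and 106 in gSOX10 #2. ROS1, a receptor tyrosine kinase, had 452, 1098 and 1819, 169, 125 and 129 and 145, 104 and 48.9 in the same order. In each of the 3 genes every gSOX10 #4 library lay above all libraries of both other groups, although ROS1 differed 4-fold within the clone.

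Genes lower in gSOX10 #4 than in both other groups included signaling and matrix genes. SMO, the transducer of Hedgehog signaling, had 164, 98.9 and 113 in gSOX10 #4, 1139, 1391 and 1190.1 in parental and 1220.5, 967 and 834 in gSOX10 #2. FREM2, a basement membrane protein, had 2.02, 19.3 and 14.7, 2018, 2117 and 1669 and 903, 676 and 649. COL9A3, a collagen of cartilage, had 231, 93.7 and 80.2, 1069, 1276 and 2142 and 1970.2, 1899.5 and 2053. gSOX10 #4 lay below both groups without overlap in all 3 genes (log2 differences from gSOX10 #2 of -3.01, -6.22 and -4.02, adjusted p = 2.09e-09, 1.04e-06 and 8.46e-07). The other genes of this kind with the largest differences were SERPINA5, BGN, CCL2, COLEC12 and NGFR below both groups and SLC26A4, SMOC1, SH2D2A, ADAMTSL1 and VGF above them. SMOC1 lost its call without parental replicate 2 (log2 change 2.15, adjusted p = 0.0631) and without gSOX10 #4 replicate 3 (log2 change 1.83, adjusted p = 0.0906). VGF lost its call without parental replicate 1 (log2 change 1.74, adjusted p = 0.073), without parental replicate 2 (log2 change 1.83, adjusted p = 0.0585) and without gSOX10 #4 replicate 1 (log2 change 1.43, adjusted p = 0.105). CCL2, a chemokine, had 183, 50.5 and 63.8 in gSOX10 #4, 189, 2588 and 3014 in parental and 1094, 1017 and 426 in gSOX10 #2, with parental replicate 1 near the knockout. Calls against parental were opposite for 7 genes that were higher in gSOX10 #4 and lower in gSOX10 #2 and for 49 genes with the reverse. Examples chosen after their values were seen are MAGEB2, a cancer-testis antigen, with 1087, 1371 and 1369.7 in gSOX10 #4, 94.5, 86.7 and 84.1 in parental and 39.4, 24.3 and 41.2 in gSOX10 #2, and XYLT1, a xylosyltransferase of proteoglycan synthesis, with 277, 91.1 and 106, 1329, 1162 and 961 and 5147, 4240.2 and 4204.

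**Figure D4:**
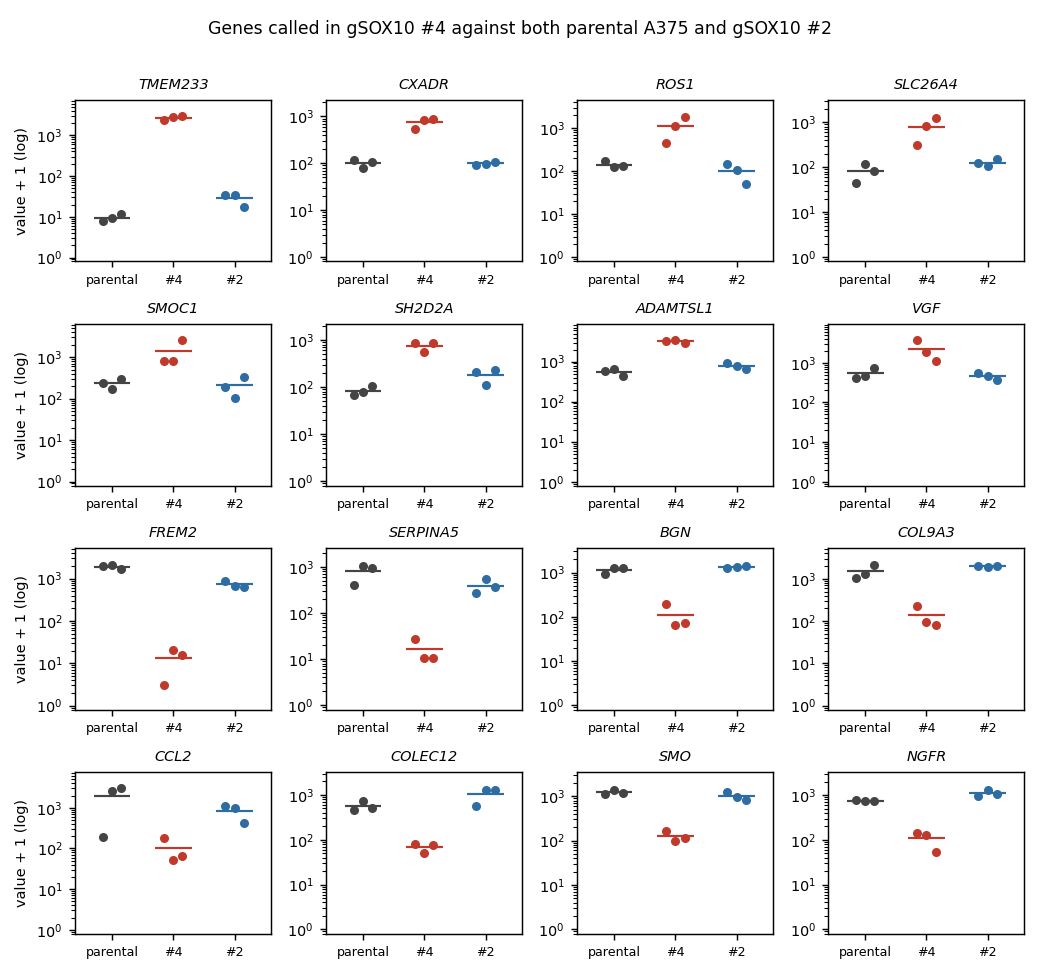
Value + 1 (log axis) for 8 genes called higher and 8 called lower in gSOX10 #4 than in both parental A375 and gSOX10 #2, each point 1 library and each bar the mean of a group. The genes were chosen with gSOX10 #2 not called against parental, so where it lies near the parental line this follows from the choice. In FREM2 and TMEM233 every gSOX10 #2 library lies between the parental and the gSOX10 #4 libraries. Parental replicate 1 of CCL2, at 189, reaches the gSOX10 #4 libraries, of which the highest is at 183.

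Changes in gSOX10 #4 were unevenly spread over the genome. Over 13221 genes with a mean of 100 or more across all 21 libraries, the median log2 change was -0.04, and 9.62% were called higher and 7.66% lower. The median was -0.47 on chromosome 17 (802 genes, 33 higher and 133 lower) and -0.42 on chromosome 16 (590 genes, 22 higher and 95 lower). In gSOX10 #2 the medians of the same genes were -0.01 and -0.04. On chromosome 17, 77.7% of genes had a change below 0 in gSOX10 #4 and 51.2% in gSOX10 #2, where all chromosomes together had 52.9% and 52.1%. By library, relative to the parental mean, chromosome 17 had medians of -0.33, -0.51 and -0.51 in gSOX10 #4 and of 0.00, 0.00 and 0.03 in gSOX10 #2, and the parental libraries lay between -0.01 and 0.02. Chromosome 16 had -0.21, -0.47 and -0.50 in gSOX10 #4 and -0.01, -0.07 and -0.03 in gSOX10 #2. All 3 gSOX10 #4 libraries were thus lower on both chromosomes than every parental and gSOX10 #2 library, replicate 1 least so. Replicate 1 also differed on chromosome 19, at 0.37 against 0.07 and 0.04 in replicates 2 and 3.

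The shift on chromosome 17 ran along its length, with all 9 windows of 10 Mb below 0, from -0.69 to -0.31, and on chromosome 16 in 7 of 8 windows, from -0.76 at 10 to 20 Mb to 0.11 at 80 to 90 Mb. In the window of chromosome 16 from 10 to 20 Mb, 19 of 56 genes were lower and 0 higher. By the direct test, 106 of the 802 genes of chromosome 17 were lower in gSOX10 #4 than in gSOX10 #2 and 3 higher, and on chromosome 16, 71 of 590 were lower and 1 higher, where 800 of all 13221 were lower and 287 higher. Genes named above that lie on these chromosomes include TK1, SHMT1, CDC6 and NGFR on 17 and CIITA, NQO1, GPT2 and SLC7A5 on 16. These genes were chosen after their values were seen, and the part of the shift of their chromosome in their changes was not tested. Chromosome 13 had a median of -0.52 in gSOX10 #4 (237 genes, 18 higher and 51 lower) and of -0.34 in gSOX10 #2, and was lower in every library of both clones. Its median was also below 0 in the tolerant lines without inhibitors, at -0.31 in CRT34 and -0.60 in CRT35. Chromosome 20 had -0.19 and 0.05. On the remaining chromosomes the median of gSOX10 #4 lay between -0.23, on chromosome 21, and 0.14, on chromosome 19. Copy number was not measured in these samples.

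**Figure D5:**
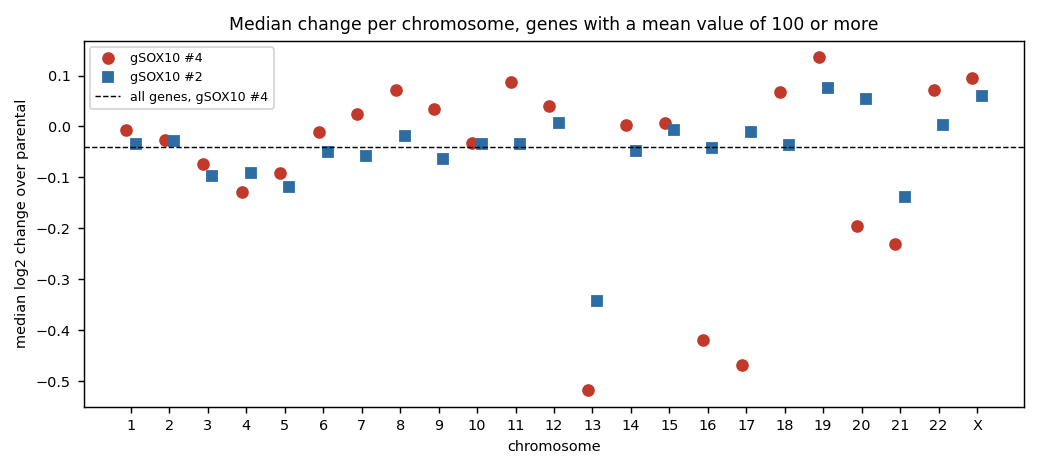
Median log2 change over parental A375 per chromosome for gSOX10 #4 (red circles) and gSOX10 #2 (blue squares), for genes with a mean of 100 or more, with a dashed line at the median of all these genes in gSOX10 #4. Chromosomes 16 and 17 are low in gSOX10 #4, at -0.42 and -0.47, and near 0 in gSOX10 #2, and chromosome 13 is low in both clones.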

How the data were processed

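RNA from cultured cells was sequenced in 21 libraries, of which the 3 of parental A375, the 3 of gSOX10 #4 and the 3 of gSOX10 #2 are reported. The deposited signal values are 1 normalized value per gene and library. Per the labels, the authors aligned reads to GRCh38 with STAR 2.6.1a, quantified genes with RSEM and used Picard and DESeq2, and the values behave as RSEM estimates divided by library and gene factors. They are therefore not counts, and whole reads could not be recovered, since 18.0% to 62.1% of low values were whole multiples of 1 step within 0.05. The library kit in the labels differs from that in the study's methods. Values are not corrected for gene length, and strand use is not given in the sources used here.

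Genes with a value of 10 or more in at least 3 libraries were tested on log2(value + 1) with the moderated test of limma 3.58.1 (R 4.3.3), with 1 mean per group over all 21 libraries and Benjamini-Hochberg adjustment over 19290 genes. Changes on this scale understate those of low genes. Names and positions came from GENCODE 44, matched for 58472 of 58870 IDs, and promoters from RefSeq. Tables and figures used Python 3.11.15, pandas 2.3.3, numpy 2.4.6 and matplotlib 3.10.9. The fit was checked on simulated data. Deviations of libraries with equal numbers correlated at -0.00236, 0.0163 and -0.0212, so the numbers were not treated as pairs.

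The comparison, the 81 gene lists (1990 different genes) and the tests were chosen with earlier results of these data known. Named genes are SOX10, the 10 largest rises and falls (protein-coding, no overlap, mean of at least 1000), the 8 largest gains and losses of value, the 8 genes most different from both other groups in each direction (mean of at least 500), and in each list the 4 called members of lowest p per direction, or all where 5 or fewer. Further genes were named outside this rule. Some of them are said to be chosen after their values were seen, and others, such as CDC6, PCNA and B2M, carry no such remark. Some genes that fall under this rule are not reported here. The alternatives were no filter, only the compared libraries, pseudocount 10, equal totals, quantile normalization, a replicate block and leaving out each library.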

Additional observations from a re-analysis of the deposited data

Results flagged for a closer look

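For 16 genes the change from parental A375 differed between the SOX10 knockout clones by the direct limma test of gSOX10 #4 against gSOX10 #2, while gSOX10 #2 was not called against parental. The log2 difference of gSOX10 #4 from gSOX10 #2 was 6.62 for TMEM233, 2.9 for CXADR, 3.4 for ROS1, 2.46 for SLC26A4, 2.66 for SMOC1, 2.09 for SH2D2A, 2.06 for ADAMTSL1 and 2.11 for VGF, all higher in gSOX10 #4. It was -6.22 for FREM2, -4.69 for SERPINA5, -3.76 for BGN, -4.02 for COL9A3, -3.2 for CCL2, -3.86 for COLEC12, -3.01 for SMO and -3.45 for NGFR, all lower. These genes were selected for this difference, and each clone is 1 line, so the guide, the clone and its culture cannot be told apart.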

How the results depend on the processing

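SOX10 and the counts of genes called kept their direction and stayed within 1.5 times their values under every alternative run. gSOX10 #4 against parental gave 2300 higher and 1824 lower genes with no filter, 2182 and 1607 with only the compared libraries, 1900 and 1476 with pseudocount 10, 2543 and 1459 with equal totals, and 1945 and 1713 after quantile normalization. Leaving out 1 library gave 1986 to 2160 higher and 1526 to 1735 lower. Equal totals moved the median of all genes by 0.095 and the higher share of calls from 57.0% to 63.5%. The direct test of the clones gave 378 higher and 997 lower genes with only the compared libraries and 426 to 506 and 1112 to 1359 with 1 library left out. With the replicate number as a block, which the libraries do not bear out as a pairing, 1864 genes were higher and 1374 lower, and SOX10 had an adjusted p of 0.00418. Of 5664 values of 472 named genes under 12 alternatives, 5297 kept their call, 367 lost it and 0 reversed, and 108 genes lost a call at least once. Pseudocount 10 took the call from 43 of the named genes and the replicate block from 50. Gene by gene, lost calls are given above mainly where 1 library was left out. Those fits kept the libraries of the other groups, whose spread enters each SE. For SOX10 the SE was 0.47 in the main fit and 0.12 with only the compared libraries. The cause of the lost calls was not tested. Low values limit the folds of genes near 0.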
